A study of Mus musculus with 29 samples.

Results

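The 10 genes described here mark the stem cell compartment of the colonic crypt or are targets of Wnt signalling. They were chosen by name as Lgr5, Ascl2, Smoc2, Axin2, Olfm4, Sox9, Lrig1, Rnf43, Znrf3 and Ephb2. All 10 were found by Ensembl identifier among the 54532 genes counted in RNA from whole colon segments of 29 mice, and all 10 were among the 18616 genes tested, whose counts averaged 3 or more per mouse. The mice, with 1 library each, formed 6 colitis models and 3 untreated control groups, and the labels gave no field for age. The identifier of TRUC mouse 4 in the count table ended in 8W, which the labels do not explain. TRUC mice (n = 4) were labelled Balb/C Tbx21-/- x Rag2-/-, were untreated and were compared with untreated mice labelled Balb/C Rag2-/- (n = 3), so by their labels both groups lacked T and B cells. Untreated mice labelled Balb/C (n = 3) were the wild-type control of 3 models. These were mice given 3% dextran sulphate sodium (DSS, n = 3) in the drinking water for 5 days and killed on day 10, and mice given 3 mg dinitrobenzene sulphonic acid (DNBS, n = 3) rectally in 200 µl of 50% ethanol. The last of the 3 was IL-10 blockade (n = 4), for which the labels give 750 µg of an antibody to the IL-10 receptor and 4 weeks to culling. The study's methods describe Il10-/- mice for its IL-10 model, and for DSS they give C57BL/6 mice and other culling days, so the identity of these treatments is in doubt and the labels were followed. Untreated mice labelled C57BL/6 Rag1-/- (n = 3) were the control of 2 models on the same labelled genotype. One was naive CD4 T-cell transfer (TCT, n = 3), with 500000 cells and 6 to 8 weeks to culling, and the other was 50 µg of the agonist anti-CD40 antibody (n = 3), with 7 days to culling. The treatment text of the labels gives Rag2-/- recipients for TCT, against their genotype label of Rag1-/-, so the genotype of the TCT mice is not settled. For TCT, the study's methods also give another range of culling times, and a larger number of cells as an alternative to this one. Comparing each model with its own control asked how the stem cell and Wnt genes of the colon differed between inflamed and healthy mice.

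The colonic epithelium is renewed from stem cells at the crypt base. Wnt ligands from the surrounding stroma keep beta-catenin stable in these cells, and beta-catenin then switches on targets with factors of the TCF/LEF family. Several targets feed back on the pathway: Axin2 helps to destroy beta-catenin, Rnf43 and Znrf3 remove Wnt receptors from the cell surface, and Lgr5, a receptor for R-spondins, works against the removal of those receptors. Damage and inflammation of the colon are known to disturb this compartment.

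The libraries held 10725564 to 14977094 counts (median 12287039), at which 3 counts were worth 0.179 to 0.314 CPM, the usual count scaled to library size. Levels below are CPM adjusted by the trimmed mean of M values (TMM), and differences are log2 fold changes ± SE from a quasi-likelihood fit in edgeR, whose adjusted p was corrected by Benjamini-Hochberg over all genes tested. The labels were checked against genes that mark strain and genotype. H2-Ea-ps, the remnant of an MHC class II gene that is silent in C57BL/6 mice and active in Balb/C mice, had at most 1 count in every library labelled wild-type, DSS, DNBS or IL-10 blockade, all labelled Balb/C, and 0 counts in those labelled TCT. It had 787 to 1011 counts in the libraries labelled Rag1-/- control and 2262 to 2512 in those labelled anti-CD40, both labelled C57BL/6, and 784 to 3956 in the Rag2-/- control and TRUC libraries. Rag1 had 20 to 33 counts in the TCT libraries and at most 4 in the others. Rag2 had 6 to 99 counts in the libraries labelled Rag1-/- control, Rag2-/- control, TRUC and anti-CD40, and at most 1 elsewhere. Tbx21, which the TRUC label gives as deleted, had 26 to 52 counts in the TRUC libraries and 1 to 7 in the Rag2-/- controls, against the direction of the label. Libraries labelled IL-10 blockade held 61 to 111 counts of Il10, where the wild-type controls held 1 to 4. Counts over a whole gene do not show whether a deleted part was transcribed, so these genes could not settle a genotype, and group names below are those of the labels. Summed over 7 lymphocyte genes, the level was 58.8 to 94.0 CPM in the wild-type controls. It was 3.28 to 9.16 CPM in the libraries labelled Rag1-/- control, Rag2-/- control, TRUC and anti-CD40. The strain label thus went against H2-Ea-ps in 6 of the 9 groups, and in the libraries labelled TCT and their labelled control, strain background and colitis cannot be told apart.

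Epithelial RNA was present in every group. The summed level of 8 epithelial genes was 6653 to 8341 CPM in DSS mice, 9131 to 10864 CPM in the wild-type controls and 13552 to 18198 CPM in mice with IL-10 blockade. Of the 10 members, Lrig1 had the highest level per length, with a median over the 29 mice of 26.7 CPM per kb of exons. Sox9 followed with 11.3 CPM per kb, then Rnf43 with 6.02, Ephb2 with 5.29, Smoc2 with 4.89, Axin2 with 4.23, Ascl2 with 2.91 and Znrf3 with 1.17 CPM per kb. Lgr5 (0.649 CPM per kb) and Olfm4 (0.0576 CPM per kb) were the lowest, and Olfm4 had no count in 10 of the 29 mice.

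**Figure D1:**
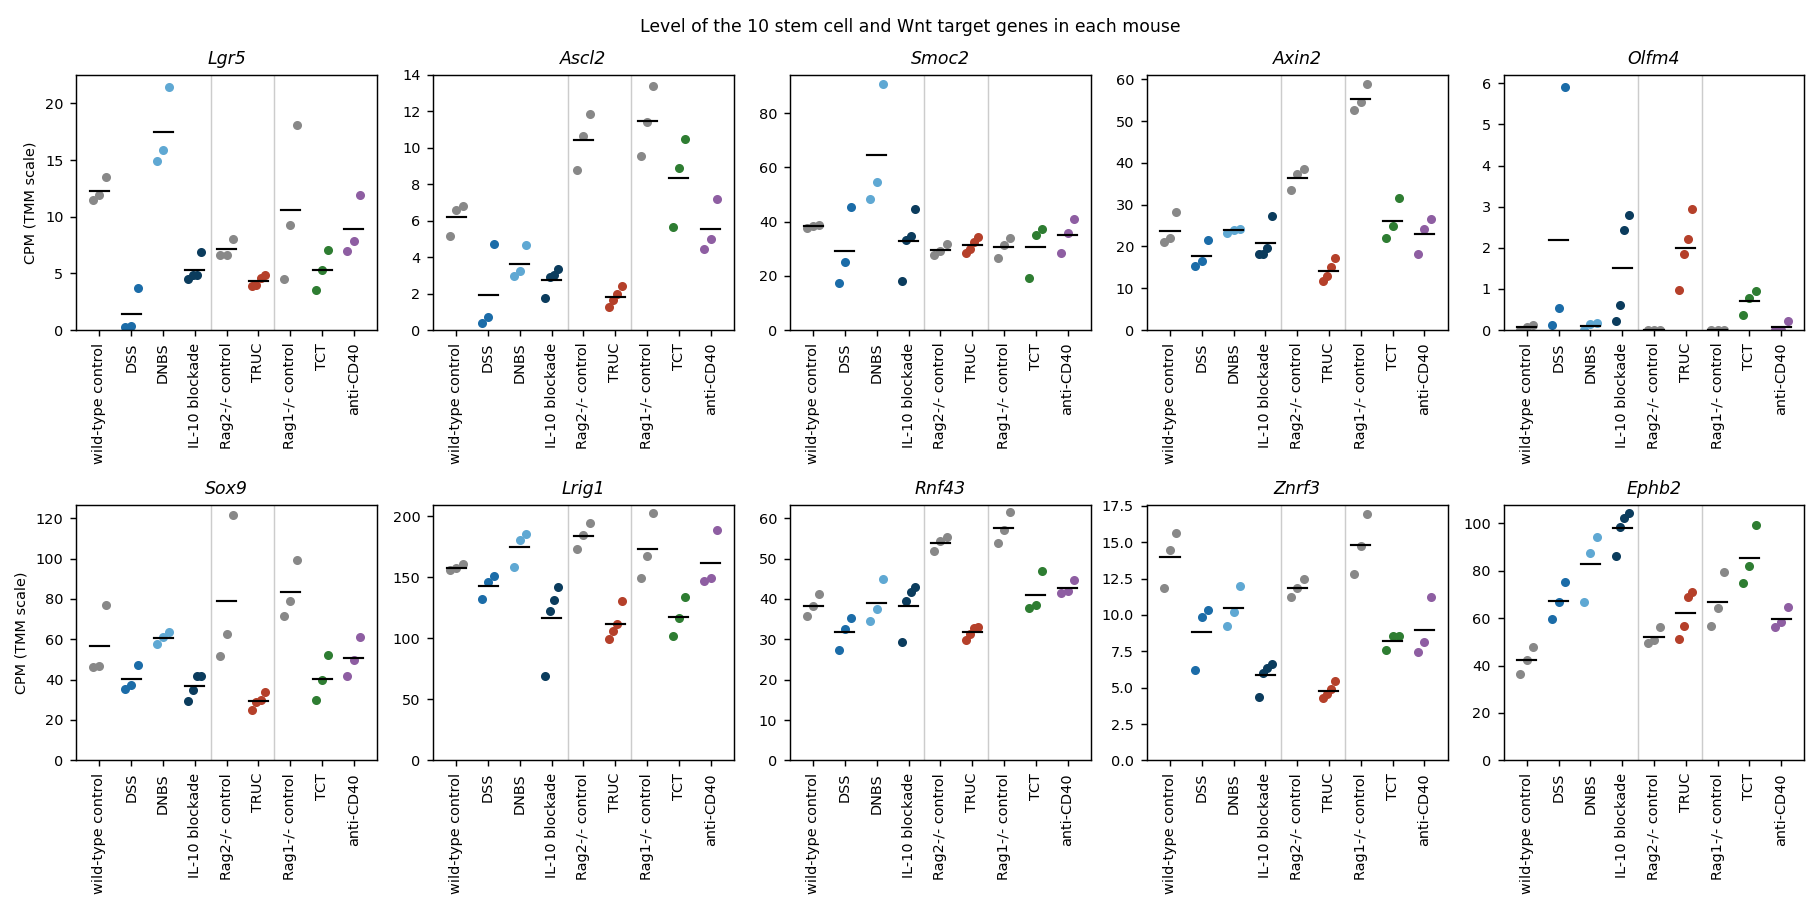
Level of each member in every mouse, in CPM on the TMM scale (vertical axis, from 0), by group (horizontal axis); points are mice, black bars are group means, and grey lines divide the models by the control they share. Axin2 lies at 52.5 to 58.8 CPM in the 3 mice labelled Rag1-/- control and at 11.7 to 17.2 CPM in the 4 TRUC mice.

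TRUC colitis was the model with the most members lowered. Ascl2, Axin2, Sox9, Lrig1, Rnf43 and Znrf3 fell and Olfm4 rose. The 6 members that fell compare with 23.4% of all genes tested that fell, and the 1 that rose with 22.4% that rose. The median log2 difference was -0.74 over the 10 members and -0.03 over all genes tested. In bulk tissue, fewer cells of a type and less RNA per cell cannot be told apart.

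In DSS colitis, Lgr5, Ascl2 and Znrf3 fell (3 members, against 16.3% of all genes) and Olfm4 and Ephb2 rose (2 members, against 17.7%). The median log2 difference was -0.40 over the members and 0.02 over all genes. With the 2 groups fitted alone in edgeR, 1 member was lower and 1 higher, and without DSS mouse 8 the 2 members higher became 1. DNBS colitis changed fewer genes altogether, with 2.21% of all genes lower and 3.95% higher. Ephb2 was the 1 member that rose, and 0 members fell by edgeR's test. At an unadjusted p under 0.05, 1 member was lower and 2 were higher, and DESeq2 called 0 lower and 2 higher. The members' median in DNBS was 0.12 on the log2 scale, against 0.01 over all genes.

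With IL-10 blockade, Lgr5, Ascl2, Sox9, Lrig1 and Znrf3 fell (5 members, against 26.1% of all genes) and Olfm4 and Ephb2 rose (2 members, against 27.2%). The median was -0.33 over the members and -0.01 over all genes. The 5 became 3 without wild-type control mouse 1 or IL-10 blockade mouse 2, 2 without wild-type control mouse 2, and 1 without wild-type control mouse 4 or IL-10 blockade mouse 4. That 1 was Znrf3.

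In the libraries labelled TCT, Axin2, Sox9, Lrig1, Rnf43 and Znrf3 were lower than in the labelled Rag1-/- control (5 members, against 14% of all genes) and Olfm4 was higher (1 member, against 16.1%). The median was -0.52 over the members and 0 over all genes. Without control mouse 2 or 4 or TCT mouse 3 or 5, 0 members were called higher. Against the wild-type controls, whose H2-Ea-ps matched theirs, the TCT libraries had 1 member lower (Znrf3, -0.77 ± 0.19, edgeR adjusted p = 0.00458) and 1 higher (Ephb2, 1.02 ± 0.15, edgeR adjusted p = 5.15e-05), beside 13.8% of all genes lower and 16.9% higher.

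In the anti-CD40 libraries, Axin2, Sox9, Rnf43 and Znrf3 fell against the labelled Rag1-/- control (4 members, against 10.7% of all genes). The count of members higher was 0 by edgeR, at an unadjusted p under 0.05 and by DESeq2 alike, where 10.9% of all genes rose. The median was -0.34 over the members and -0.03 over all genes. The 4 became 2 without control mouse 2 or 3 or anti-CD40 mouse 6, and 1, Axin2, without anti-CD40 mouse 7. Against the Rag2-/- controls, 1 member was lower (Axin2, -0.66 ± 0.18, edgeR adjusted p = 0.00957), beside 11.8% of all genes lower and 12.4% higher.

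Some members were separated by group without passing the test. Counted by mice alone, 7 members lay wholly below the controls and 1 wholly above in TRUC, beside 29.2% and 28.8% of all genes. In DSS these were 5 and 1 (24% and 25.9% of all genes), in DNBS 1 and 3 (16.9% and 15.6%) and with IL-10 blockade 5 and 2 (28% and 27.6%). In TCT they were 5 and 1 (21.7% and 21.4%), and in anti-CD40 5 were below (20.4%) where 19.2% of all genes were above. The 3 above in DNBS were Lgr5, Smoc2 and Ephb2, and the 1 below was Ascl2.

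**Figure D2:**
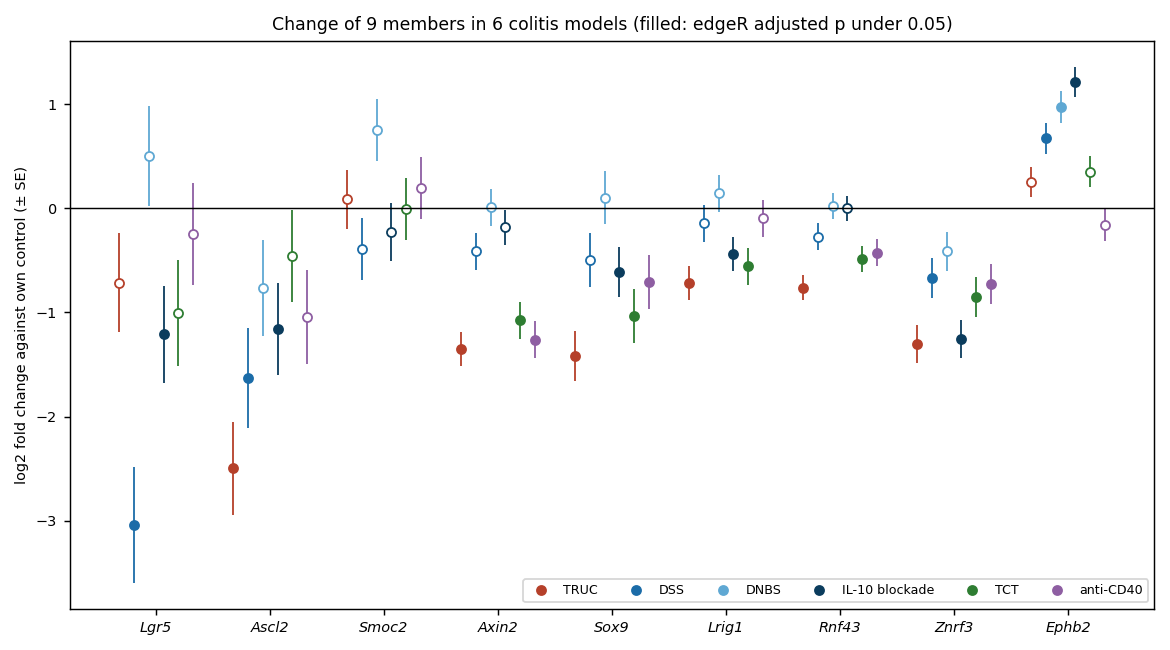
Log2 fold change ± SE (vertical axis) of 9 members (horizontal axis) in each of the 6 models against its own control; filled points passed an edgeR adjusted p under 0.05 and open points did not. Olfm4, with no count in the Rag1-/- and Rag2-/- controls, is left out. Znrf3 is below 0 in every model and Ephb2 is above 0 in all but anti-CD40.

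Lgr5 (ENSMUSG00000020140, GRCm38 chr10:115450311-115587780, minus strand) is the marker by which crypt-base stem cells are usually traced. Its level was 11.4, 13.5 and 11.9 CPM in the 3 wild-type controls. The DSS mice had 3.71, 0.273 and 0.320 CPM, each below every control. DSS mice 6 and 8 stood far below DSS mouse 5, and the log2 difference was -3.04 ± 0.56 (edgeR adjusted p = 0.000244), or -5.34 without DSS mouse 5. Mice with IL-10 blockade had 6.91, 4.88, 4.89 and 4.50 CPM, again all below the controls. That difference was -1.21 ± 0.46 (edgeR adjusted p = 0.0318). It missed the threshold without any 1 of the 3 wild-type control mice or of IL-10 blockade mice 2, 3 and 4, at adjusted p of 0.0541 to 0.0802. The DNBS mice stood on the other side of the same controls, at 15.9, 21.5 and 14.9 CPM. All 3 exceeded the highest control, but the difference of 0.50 ± 0.48 did not pass (edgeR adjusted p = 0.544), with a 95% interval of 0.737 to 2.73 for the fold.

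The Rag2-/- controls had less Lgr5, at 8.06, 6.66 and 6.65 CPM, and TRUC mice had 4.57, 3.91, 3.94 and 4.89 CPM. The groups did not overlap, yet the difference of -0.71 ± 0.48 missed the threshold in the fit over all groups (edgeR adjusted p = 0.227) and passed it when only these 2 groups were fitted, in edgeR (adjusted p = 0.00352) and in DESeq2 (adjusted p = 0.00364). The libraries labelled Rag1-/- control spread from 4.48 to 18.1 CPM, a range that overlapped both TCT (3.49 to 7.09 CPM) and anti-CD40 (6.95 to 11.9 CPM). Neither model's Lgr5 passed. The approximate 95% intervals of the fold were 0.251 to 0.991 for TCT and 0.432 to 1.64 for anti-CD40. The TCT interval leaves out 1 only by its approximation, because edgeR's unadjusted p was 0.0587. Without control mouse 2, the log2 difference was -0.37 in place of -1.003 for TCT and 0.37 in place of -0.25 for anti-CD40.

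Ascl2 (ENSMUSG00000009248, GRCm38 chr7:142966829-142969264, minus strand) encodes the Wnt-dependent transcription factor that maintains stem cell identity in the crypt. The Rag2-/- controls had 8.77, 11.9 and 10.6 CPM, and TRUC mice had 1.99, 1.25, 1.65 and 2.44 CPM. The highest TRUC mouse thus lay far below the lowest control, with a log2 difference of -2.497 ± 0.45 (edgeR adjusted p = 0.000119). Ascl2 was 5.18, 6.59 and 6.81 CPM in the wild-type controls, against 4.72, 0.410 and 0.720 CPM in DSS mice. The same DSS mice that had almost no Lgr5, mice 6 and 8, had almost no Ascl2. Here the difference was -1.63 ± 0.48 (edgeR adjusted p = 0.0110). It was -3.46 without DSS mouse 5, and missed the threshold without DSS mouse 8 (adjusted p = 0.0693) and when the 2 groups were fitted alone (adjusted p = 0.170 by edgeR and 0.0885 by DESeq2).

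Ascl2 also fell with IL-10 blockade, where mice had 3.04, 3.33, 2.92 and 1.78 CPM, below all wild-type controls. The difference was -1.16 ± 0.44 (edgeR adjusted p = 0.0298), and the adjusted p was 0.0705 to 0.0762 without wild-type control mouse 2 or 4 or IL-10 blockade mouse 4. DNBS mice had 4.66, 2.95 and 3.24 CPM, all below the controls, at -0.77 ± 0.46 (edgeR adjusted p = 0.311). In anti-CD40 mice, 4.98, 4.46 and 7.18 CPM lay below the 9.58 to 13.4 CPM of the labelled Rag1-/- control. The fit over all groups did not call it (-1.04 ± 0.45, edgeR adjusted p = 0.0987), while fits of the 2 groups alone did (adjusted p = 0.0121 by edgeR and 0.00141 by DESeq2). The TCT libraries, at 5.64 to 10.5 CPM, overlapped that control, with a 95% interval of 0.399 to 1.33 for the fold. Both Ascl2 and Lgr5 fell in DSS and IL-10 blockade, and Ascl2 was also called in TRUC. The difference between these 2 genes was not tested.

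Smoc2 (ENSMUSG00000023886, GRCm38 chr17:14279506-14404790, plus strand), a secreted matricellular protein enriched in Lgr5-positive cells and also made by stromal cells, was called in 0 of the 6 models by edgeR. At an unadjusted p under 0.05 it was higher in DNBS alone, where DESeq2 also called it (log2 difference 0.76, adjusted p = 0.0164). The wild-type controls lay close together at 37.6, 38.5 and 38.8 CPM, and the DNBS mice had 48.4, 90.6 and 54.7 CPM. Every DNBS mouse was above every control (0.75 ± 0.30, edgeR adjusted p = 0.121). In DNBS, the fibroblast genes Col1a1 and Col1a2 rose too (1.82 ± 0.40 and 1.29 ± 0.28), and DNBS mice had a summed fibroblast level of 1771 to 4695 CPM against 1599 to 1837 CPM in controls. The part of those cells in the Smoc2 level was not tested. In the other 5 models Smoc2 overlapped its control. Without DSS mouse 8, which had 45.3 CPM where the others had 25.05 and 17.4, it was called lower in DSS (-0.85, edgeR adjusted p = 0.0445).

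Axin2 (ENSMUSG00000000142, GRCm38 chr11:108920349-108950783, plus strand) is the most widely used readout of Wnt signalling through beta-catenin. Of its exon bases, 3.8% overlap the antisense gene Gm11670, and the counting was not stated to use strand. The Rag2-/- controls had 38.4, 37.3 and 33.5 CPM, and TRUC mice had 15.0, 12.99, 11.7 and 17.2 CPM. Every TRUC mouse lay below every control, at -1.35 ± 0.17 (edgeR adjusted p = 2.1e-06). The libraries labelled Rag1-/- control had the highest Axin2 of all groups, with 58.8, 52.5 and 54.6 CPM. Against them, TCT libraries had 31.7, 24.96 and 22.0 CPM and anti-CD40 libraries had 24.2, 18.3 and 26.6 CPM. Neither group reached its control, at -1.08 ± 0.18 (edgeR adjusted p = 5.97e-05) and -1.26 ± 0.18 (edgeR adjusted p = 5.01e-05). These 3 calls were kept without any 1 mouse.

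The models that share the wild-type control did not show this. Those controls had 21.9, 21.05 and 28.2 CPM of Axin2. DNBS mice had 24.2, 24.0 and 23.3 CPM, within the range of the controls, with a 95% interval of 0.790 to 1.28 for the fold. IL-10 blockade gave 18.2 to 27.4 CPM (interval 0.703 to 1.11) and DSS gave 15.4 to 21.5 CPM. The DSS difference of -0.41 ± 0.18 missed the threshold (edgeR adjusted p = 0.0778) and passed without DSS mouse 5 (adjusted p = 0.0232).

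The control groups themselves differed in Axin2. Its level in the labelled Rag1-/- control was 1.22 ± 0.18 above the wild-type control on the log2 scale (edgeR adjusted p = 3.25e-05), and in the Rag2-/- control it was 0.62 ± 0.18 above it (edgeR adjusted p = 0.0294). The mean level was 55.3 ± 3.19 CPM (SD, n = 3), 36.4 ± 2.60 CPM (SD, n = 3) and 23.7 ± 3.90 CPM (SD, n = 3) in the 3 controls. Rnf43 differed the same way (0.58 ± 0.13, edgeR adjusted p = 0.00292, and 0.49 ± 0.13, edgeR adjusted p = 0.0146), and Ephb2 was higher in the labelled Rag1-/- control (0.66 ± 0.15, edgeR adjusted p = 0.00499). In the Rag2-/- control, Ephb2 also lay wholly above the wild-type control, at 0.30 ± 0.15, and did not pass (edgeR adjusted p = 0.274). Over all genes, 4.77% were higher and 6.18% lower in the labelled Rag1-/- control than in the wild-type control, and 3.25% higher and 4.86% lower in the Rag2-/- control. Genotype, strain and any difference in housing cannot be told apart here. Against the wild-type control, the log2 difference of the TCT libraries was 0.14 for Axin2 and 0.10 for Rnf43.

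Rnf43 (ENSMUSG00000034177, GRCm38 chr11:87662722-87735539, plus strand) and Znrf3 (ENSMUSG00000041961, GRCm38 chr11:5276324-5444847, minus strand) encode related membrane E3 ligases that clear Frizzled receptors. Rnf43 followed Axin2 in its calls. It was 54.4, 55.3 and 51.8 CPM in the Rag2-/- controls and 33.0, 29.9, 31.2 and 32.8 CPM in TRUC mice, 2 tight groups far apart (-0.76 ± 0.12, edgeR adjusted p = 2.76e-05). The labelled Rag1-/- control had 61.6, 53.9 and 57.0 CPM, TCT had 47.0, 38.6 and 37.7 CPM and anti-CD40 had 44.8, 42.0 and 41.6 CPM. Both fell without overlap, at -0.48 ± 0.13 (edgeR adjusted p = 0.00521) and -0.43 ± 0.13 (edgeR adjusted p = 0.0187). The anti-CD40 call was lost without control mouse 2 (adjusted p = 0.0645) or anti-CD40 mouse 7 (adjusted p = 0.0759). Against the Rag2-/- controls, anti-CD40 did not overlap and was not called (-0.33 ± 0.13, edgeR adjusted p = 0.0587). Against the wild-type controls (35.8 to 41.2 CPM), IL-10 blockade (29.3 to 43.0 CPM) and DNBS (34.6 to 44.9 CPM) gave 95% intervals for the fold of 0.851 to 1.18 and 0.854 to 1.21. DSS mice had 27.4 to 35.3 CPM, all below the controls, at -0.27 ± 0.13 (edgeR adjusted p = 0.101).

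Znrf3 fell in 5 of the 6 models, more than any other member. The wild-type controls had 11.9, 14.5 and 15.7 CPM, and mice with IL-10 blockade had 6.66, 6.34, 6.01 and 4.39 CPM. All 4 lay below the controls, at -1.25 ± 0.18 (edgeR adjusted p = 7.95e-06), in the same model in which Rnf43 and Axin2 were not called. TRUC mice had 5.46, 4.89, 4.31 and 4.56 CPM against 11.9, 12.5 and 11.3 CPM in the Rag2-/- controls (-1.30 ± 0.18, edgeR adjusted p = 9.55e-06). DSS mice had 10.3, 9.85 and 6.24 CPM, below every wild-type control by a narrower margin (-0.67 ± 0.19, edgeR adjusted p = 0.00935, and 0.0804 without DSS mouse 8). The labelled Rag1-/- control had 12.8, 16.9 and 14.7 CPM. TCT had 7.60, 8.55 and 8.53 CPM (-0.85 ± 0.19, edgeR adjusted p = 0.00164). Anti-CD40 had 7.42, 8.15 and 11.3 CPM (-0.72 ± 0.19, edgeR adjusted p = 0.00952), a call that was lost without control mouse 3 or anti-CD40 mouse 6 or 7, at adjusted p of 0.0548 to 0.0595. Against the Rag2-/- controls, anti-CD40 overlapped and was not called (-0.40 ± 0.19, edgeR adjusted p = 0.127). In DNBS, 12.0, 10.2 and 9.21 CPM overlapped the lowest control by 1 mouse, at -0.41 ± 0.19 (edgeR adjusted p = 0.180).

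Sox9 (ENSMUSG00000000567, GRCm38 chr11:112782224-112787760, plus strand), a transcription factor of crypt progenitors and a Wnt target, was called lower in 4 models against their labelled controls. TRUC mice had 28.8, 25.1, 30.1 and 33.6 CPM against 62.8, 122 and 51.7 CPM in the Rag2-/- controls. The controls were uneven, with mouse 2 far above the others, and the difference of -1.42 ± 0.24 (edgeR adjusted p = 6.44e-05) was -0.96 without that mouse (adjusted p = 0.00168). TCT had 52.0, 39.7 and 29.9 CPM against 79.1, 71.5 and 99.1 CPM in the labelled Rag1-/- control (-1.04 ± 0.26, edgeR adjusted p = 0.00350). Against the wild-type controls, TCT overlapped and was not called (-0.48 ± 0.26, edgeR adjusted p = 0.160). Anti-CD40 had 49.5, 42.0 and 61.1 CPM, below that control as well (-0.71 ± 0.26, edgeR adjusted p = 0.0492). This last call was lost without any 1 of the 3 control mice or of anti-CD40 mice 6 and 7, at adjusted p of 0.0585 to 0.209. Against the Rag2-/- controls, anti-CD40 overlapped and was not called (-0.63 ± 0.26, edgeR adjusted p = 0.0741). IL-10 blockade gave 42.0, 35.0, 41.9 and 29.2 CPM against 46.1, 46.6 and 76.9 CPM in the wild-type controls (-0.61 ± 0.24, edgeR adjusted p = 0.0351). Without wild-type control mouse 4, which had the highest of the 3 levels, the adjusted p was 0.300, and without IL-10 blockade mouse 2 or 4 it was 0.0682 or 0.0856. DSS (35.2 to 47.5 CPM) and DNBS (57.4 to 63.5 CPM) overlapped the wild-type controls, with 95% intervals for the fold of 0.501 to 1.00 and 0.759 to 1.52.

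Lrig1 (ENSMUSG00000030029, GRCm38 chr6:94604529-94700158, minus strand), a negative regulator of ErbB receptors and a stem cell marker, was called lower in 3 models against their labelled controls. Its exons share 2.58% of their bases with Slc25a26 on the other strand. TRUC mice had 112, 106, 99.9 and 131 CPM against 185, 195 and 173 CPM in the Rag2-/- controls (-0.72 ± 0.17, edgeR adjusted p = 0.00122). TCT had 102, 134 and 116 CPM against 203, 167 and 149 CPM in the labelled Rag1-/- control (-0.56 ± 0.18, edgeR adjusted p = 0.0198). The groups did not overlap, and the call was lost without control mouse 2 or TCT mouse 1 or 5, at adjusted p of 0.0601 to 0.115. Against the wild-type controls, TCT lay wholly below and was not called (-0.43 ± 0.18, edgeR adjusted p = 0.0705). IL-10 blockade gave 132, 123, 142 and 68.9 CPM against 157, 156 and 161 CPM in the wild-type controls (-0.44 ± 0.17, edgeR adjusted p = 0.0281). All 4 mice were below the controls and mouse 4 was the furthest. The adjusted p was 0.0508 to 0.0752 without any 1 of the 3 wild-type control mice or of IL-10 blockade mouse 4. With the 2 groups fitted alone it was 0.108 by edgeR and 0.0935 by DESeq2, and with the replicate number as a block it was 0.0588. DSS mice, at 133 to 151 CPM, were just below the controls (-0.14 ± 0.18, edgeR adjusted p = 0.566). In DNBS and anti-CD40, Lrig1 overlapped its control, with 95% intervals for the fold of 0.869 to 1.41 and 0.735 to 1.19.

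Ephb2 (ENSMUSG00000028664, GRCm38 chr4:136647539-136835988, minus strand) is the receptor that positions cells along the crypt by sensing ephrin-B ligands, and a Wnt target high at the crypt base. By edgeR over all mice and against its own controls, Ephb2 was called higher in 3 models and lower in 0. The members above were each called higher in 0 models, and Smoc2 was not called lower in any either. The wild-type controls had 36.4, 42.5 and 47.9 CPM. Ephb2 was 59.5, 66.7 and 75.4 CPM in DSS mice, 67.0, 94.2 and 87.6 CPM in DNBS mice and 86.3, 98.5, 104 and 102 CPM with IL-10 blockade. All 10 of these mice were above all 3 controls. The log2 difference was 0.67 ± 0.15 in DSS (edgeR adjusted p = 0.00172), 0.97 ± 0.15 in DNBS (edgeR adjusted p = 0.000988) and 1.21 ± 0.15 with IL-10 blockade (edgeR adjusted p = 1.23e-06). Because these 3 models share their controls, the agreement in direction is not 3 independent results. In TRUC mice, 71.01, 68.9, 51.2 and 56.8 CPM overlapped the 49.3 to 56.3 CPM of the controls (interval of the fold 0.979 to 1.45). Against 56.7, 79.4 and 64.5 CPM in the labelled Rag1-/- control, the interval was 1.04 to 1.57 for TCT (74.8 to 99.3 CPM) and 0.727 to 1.10 for anti-CD40 (56.3 to 64.7 CPM). The TCT difference of 0.35 ± 0.15 had an edgeR adjusted p of 0.0831, and passed without control mouse 3 (adjusted p = 0.0277) or TCT mouse 1 (adjusted p = 0.0469). Against the wild-type controls, TCT was higher without overlap (1.02 ± 0.15, edgeR adjusted p = 5.15e-05). The wild-type controls had the lowest mean Ephb2 of the 9 groups. All DSS mice lay within the range of the labelled Rag1-/- control.

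Olfm4 (ENSMUSG00000022026, GRCm38 chr14:79984081-80023139, plus strand) encodes a secreted glycoprotein that marks stem cells of the mouse small intestine and the human colon, and is also stored in granules of some neutrophils. It had 0 counts in all 6 Rag1-/- and Rag2-/- control mice and 3 counts in total in the wild-type controls. TRUC mice had 1.84, 2.22, 2.93 and 0.977 CPM, at least 8.29-fold above a floor of 3 counts per library in the controls (edgeR adjusted p = 0.00277). TCT libraries had 0.961, 0.769 and 0.371 CPM, at least 2.91-fold above that floor (edgeR adjusted p = 0.0436). The TCT call rested on 24 counts and was lost without any 1 of the 6 mice, at adjusted p of 0.0535 to 0.105. Against the wild-type controls, Olfm4 in TCT was not called (edgeR adjusted p = 0.122). IL-10 blockade gave 2.45, 2.81, 0.601 and 0.209 CPM (edgeR adjusted p = 0.0121). Its 65 counts against 3 gave a ratio of 20.5, with an exact 95% counting interval of 6.70 to 102. This interval leaves out the spread between mice, and the approximate 95% interval from the SE of the fit was 3.01 to 110. IL-10 blockade mouse 4 had 2 counts, as many as the highest wild-type control. DSS mice had 0.126, 0.547 and 5.92 CPM. The 84 DSS counts gave a ratio of 26.2 (counting interval 8.68 to 130, interval from the SE of the fit 4.27 to 154), but 74 of them came from DSS mouse 8. The edgeR adjusted p was 0.00977 with that mouse and 0.289 without it. In DNBS (4 counts) and anti-CD40 (3 counts), Olfm4 was at most 3 counts per mouse, and a difference was not detectable at this depth.

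Neutrophil genes rose beside Olfm4 in some models and without it in others. The summed level of 10 neutrophil genes was 132 to 341 CPM over the 9 control mice and 1694 to 2412 CPM in TRUC mice. DSS mouse 8, with the most Olfm4, had 2776 CPM of neutrophil genes, whereas DSS mice 5 and 6 had 532 and 782 CPM. Of the listed neutrophil genes, Cxcr2 had no count in any control mouse of the wild-type, Rag1-/- or Rag2-/- groups. In TRUC, 7 of the 9 tested rose and 1 lay wholly below the controls. In anti-CD40 libraries, neutrophil genes summed to 653 to 1011 CPM while Olfm4 was at most 0.215 CPM. In DNBS, 6 of the 9 neutrophil genes tested rose while Olfm4 was at most 0.171 CPM. Their sum there was 202 to 315 CPM, above the 132 to 146 CPM of the wild-type controls that DNBS was compared with. It lay within the range of the 9 control mice of all groups. Over the 29 mice, the genes most like Olfm4 by Spearman's rho included Lyn (0.89) and Csf3r (0.87), the receptor for the neutrophil growth factor G-CSF. The part of neutrophils in the Olfm4 level was not tested.

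**Figure D3:**
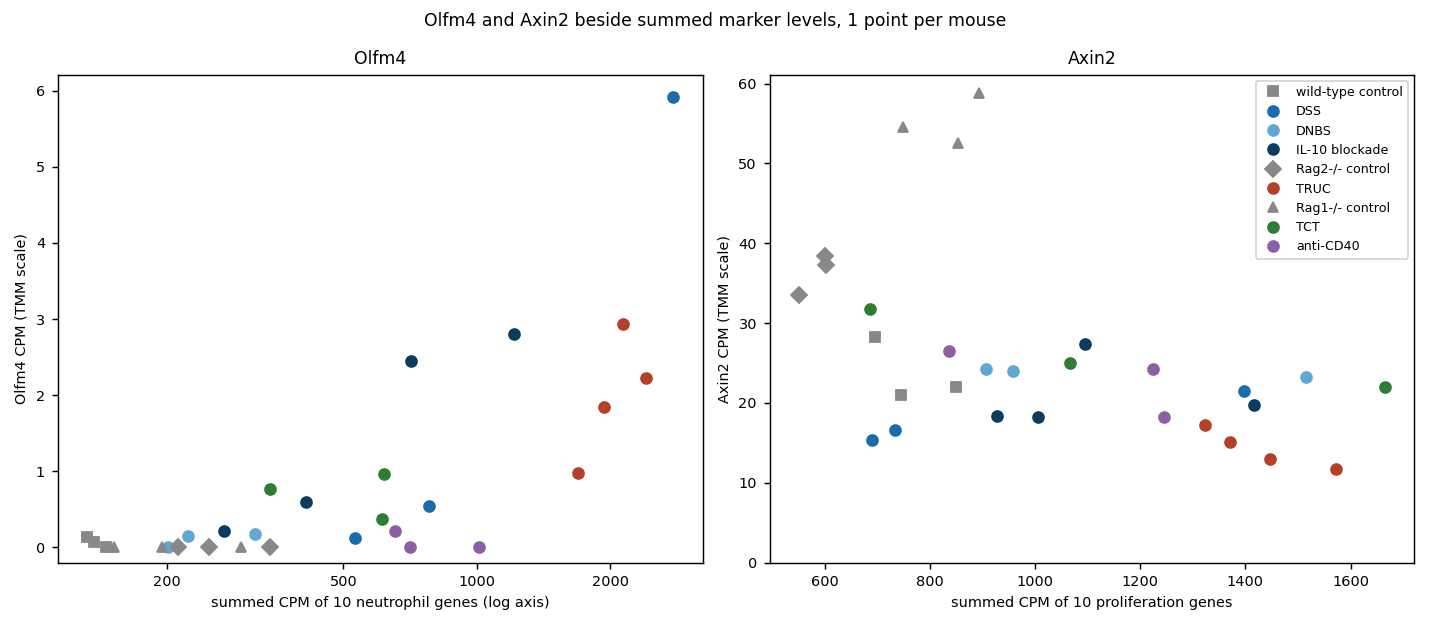
Left, Olfm4 CPM (vertical axis) against the summed CPM of 10 neutrophil genes (horizontal log axis); right, Axin2 CPM against the summed CPM of 10 proliferation genes. Points are mice, coloured by model with controls in grey, and the TRUC mice lie at high neutrophil sums of 1694 to 2412 CPM and at low Axin2.

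The promoter windows of the members that rose are shown because the same motif was found in both. RefSeq (GRCm38.p6) gave a window from 250 bases before to 50 bases after the start for 6 members, Ephb2, Lrig1, Ascl2, Rnf43 (with 2 starts), Axin2 and Olfm4, and none for Lgr5, Smoc2, Sox9 and Znrf3. The NF-kB consensus was searched on both strands after the Olfm4 sequence had been seen. Because that sequence prompted the search, its own match tests nothing. A match was also present in the Ephb2 window, and in 4.51% of all 32851 windows. No conclusion on the rise of either gene is drawn from these matches. In Olfm4 (chr14:80000052-80000351, plus strand), 2 overlapping matches make up the 11 capital letters, from 52 to 42 bases before the start. In Ephb2 (chr4:136835963-136836262, minus strand), the 10 capital letters lie from 211 to 202 bases before the start.
Olfm4: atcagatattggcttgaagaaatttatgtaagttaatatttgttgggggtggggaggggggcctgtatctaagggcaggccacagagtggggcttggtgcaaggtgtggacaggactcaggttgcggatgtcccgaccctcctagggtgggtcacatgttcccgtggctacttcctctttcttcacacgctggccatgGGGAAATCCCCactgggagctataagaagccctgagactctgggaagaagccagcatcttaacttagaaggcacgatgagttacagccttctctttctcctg
Ephb2: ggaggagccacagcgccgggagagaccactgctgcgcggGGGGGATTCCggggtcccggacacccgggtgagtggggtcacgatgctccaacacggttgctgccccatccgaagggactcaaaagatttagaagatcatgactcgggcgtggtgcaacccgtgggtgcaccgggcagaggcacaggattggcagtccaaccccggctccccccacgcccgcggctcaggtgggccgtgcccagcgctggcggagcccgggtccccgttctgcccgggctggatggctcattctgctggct
Axin2 (chr11:108920099-108920398, plus strand) is shown beside them as the member whose name stands for the Wnt response.
Axin2: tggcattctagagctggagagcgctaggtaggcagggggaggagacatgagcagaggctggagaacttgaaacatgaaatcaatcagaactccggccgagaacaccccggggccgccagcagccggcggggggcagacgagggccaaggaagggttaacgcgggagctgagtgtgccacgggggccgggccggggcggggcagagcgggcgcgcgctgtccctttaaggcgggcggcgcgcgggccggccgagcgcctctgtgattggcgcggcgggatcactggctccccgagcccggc
TCF/LEF letters, searched on both strands as CTTTGAA or CTTTGAT, and also as CTTTGTA or CTTTGTT, were in 0 of the 7 member windows and in 16.9% of all windows. These are matches of letters, in windows that do not reach enhancers or introns.

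The 6 contrasts of a member were then tested for equality in the same fit. They differed in 9 of the 10 members, beside 60.5% of all genes tested. The edgeR adjusted p was lowest for Ephb2 (0.000142), Lgr5 (0.000290) and Axin2 (0.000668). It was 0.00381 for Znrf3, 0.00529 for Rnf43, 0.00566 for Lrig1, 0.00913 for Sox9, 0.0190 for Smoc2 and 0.0353 for Olfm4. Ascl2 did not pass (edgeR adjusted p = 0.0570), and passed without any 1 of DSS mice 5, 6 and 8 or of TCT mouse 3, at adjusted p of 1.61e-05 to 0.0481. Smoc2 did not pass without DNBS mouse 14 (adjusted p = 0.200). Olfm4 did not pass without wild-type control mouse 2, TCT mouse 1 or 3, any 1 of the 3 DNBS mice, or anti-CD40 mouse 6 or 7, at adjusted p of 0.0510 to 0.110. Models of one control share those mice, and a model's control enters its contrast, so the test compares changes and not levels.

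To set the members against the amount of epithelium, each was divided in each mouse by the geometric mean of 8 epithelial genes (Epcam, Cdh1, Krt8, Krt18, Krt19, Vil1, Cldn3 and Cldn7). Model minus control, this reference differed on the log2 scale by 0.68 with IL-10 blockade, 0.25 in TRUC and -0.35 in DSS. Relative to it, 8 members were lower without overlap in TRUC, beside 43.3% of all genes, and 8 with IL-10 blockade, beside 56.9%. Higher were 1 in TRUC and 1 with IL-10 blockade, Olfm4 and Ephb2 in turn, beside 17.5% and 7.9%. In TCT 6 were lower (26.4% of all genes) and 1, Olfm4, higher (17.4%). In anti-CD40 6 were lower (39.2%), where 8.75% of all genes were higher, in DNBS 2 (18.8%) and in DSS 1, Lgr5 (8.9%). With IL-10 blockade, Axin2 and Rnf43, which had overlapped the controls per total RNA, were lower per epithelial gene, with log2 differences of -0.87 and -0.70 and no overlap. Relative to Epcam alone, Axin2 overlapped the controls (-0.78) and Rnf43 did not (-0.61). In DSS, the log2 difference per epithelial gene was -0.06 for Axin2, 0.08 for Rnf43 and -0.33 for Znrf3, and all 3 overlapped. The difference in DSS was -3.38 for Lgr5 and -1.87 for Ascl2, which overlapped the controls through DSS mouse 5. Ephb2 stayed higher in DSS (1.02), DNBS (0.79) and IL-10 blockade (0.53), where 44.6%, 8.23% and 7.9% of all genes were higher. In anti-CD40 it was among the 6 lower (-0.42), and relative to Epcam alone it overlapped the control there (-0.28).

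**Figure D4:**
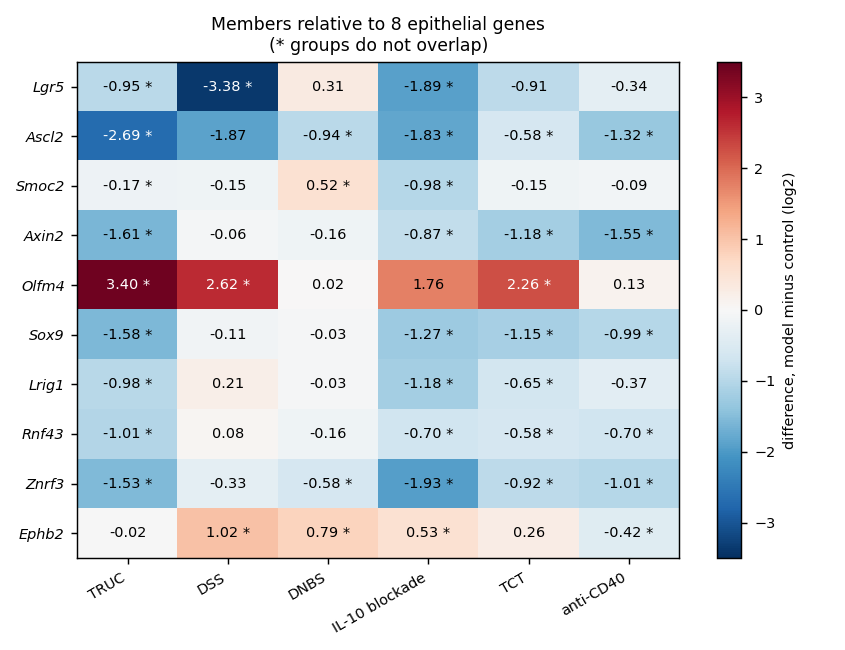
Difference between model and control (log2, colour and number) of each member (rows) relative to the geometric mean of 8 epithelial genes in the same mouse, for the 6 models (columns); a star marks groups that do not overlap. Lgr5 in DSS, at -3.38, is the lowest value, and Axin2 and Rnf43 in DSS are at -0.06 and 0.08.

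Other Wnt targets did not move as one. Of 10 tested (Nkd1, Sp5, Myc, Ccnd1, Cd44, Ephb3, Tnfrsf19, Cdca7, Slc12a2 and Apcdd1), 3 fell and 2 rose in TRUC, 1 fell and 6 rose in DSS, 2 fell and 3 rose with IL-10 blockade, and 1 fell and 2 rose in TCT. For this and the lists that follow, the shares of all genes that fell and rose were 23.4% and 22.4% in TRUC, 16.3% and 17.7% in DSS, 2.21% and 3.95% in DNBS, 26.1% and 27.2% with IL-10 blockade, 14% and 16.1% in TCT, and 10.7% and 10.9% in anti-CD40. The median log2 difference of the 10 targets was -0.14 in TRUC, 1.01 in DSS, 0.20 with IL-10 blockade and 0.15 in TCT, and 0.19 in DNBS and -0.04 in anti-CD40. Nkd1, an inhibitor of Dishevelled induced by Wnt, fell in TRUC from 49.4 ± 4.27 (SD, n = 3) to 16.5 ± 3.86 CPM (SD, n = 4), as Axin2 did (-1.58 ± 0.24, edgeR adjusted p = 2.73e-05). Tnfrsf19, a stem cell receptor also known as Troy, fell with IL-10 blockade (-2.76 ± 0.37, edgeR adjusted p = 3.17e-06) and in TRUC (-1.04 ± 0.37, edgeR adjusted p = 0.0228). Myc, a driver of growth with many inputs besides Wnt, rose in DSS (1.34 ± 0.25, edgeR adjusted p = 0.000305), and Cd44, an adhesion receptor that leukocytes also carry, rose in TCT (0.98 ± 0.31, edgeR adjusted p = 0.0201). Sp5 had a mean of 0.0273 CPM in the wild-type controls and 1.01 ± 0.433 CPM (SD, n = 4) with IL-10 blockade (edgeR adjusted p = 0.000161).

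Of 20 genes of the Wnt machinery, 8 fell in TRUC, 7 fell and 1 rose in DSS, 6 fell and 4 rose with IL-10 blockade, 4 fell and 2 rose in TCT, 2 fell in anti-CD40 and 1 rose in DNBS. With IL-10 blockade, where 26.1% of all genes fell and 27.2% rose, these counts were near the shares of all genes. The medians were -0.30, -0.21, 0.07, -0.21, -0.08 and 0.04 on the log2 scale, in that order. Tcf7l1, a TCF factor that mostly represses, fell in TRUC (-1.26 ± 0.43), DSS (-1.64 ± 0.47) and IL-10 blockade (-1.46 ± 0.43), at edgeR adjusted p of 0.0189, 0.00970 and 0.00684. The receptor gene Fzd7 fell in TRUC (-0.87 ± 0.16, edgeR adjusted p = 0.000117) and anti-CD40 (-0.83 ± 0.17, edgeR adjusted p = 0.00129), and the co-receptor gene Lrp6 fell with IL-10 blockade (-0.76 ± 0.14, edgeR adjusted p = 0.000112). Lef1 and Tcf7, TCF/LEF factors that T cells express, rose in TCT (1.94 ± 0.46 and 1.09 ± 0.32, edgeR adjusted p = 0.00225 and 0.0132). In the TCT libraries, the summed level of 7 lymphocyte genes was 74.6 to 131 CPM, against 4.30 to 5.45 CPM in the control, and its part in Lef1 and Tcf7 was not tested.

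Of 8 other crypt genes, 4 fell and 1 rose in TRUC, 2 fell and 1 rose in DSS, 1 rose in DNBS, 1 fell and 1 rose with IL-10 blockade, 3 fell and 1 rose in TCT, and 2 fell and 1 rose in anti-CD40. Of all genes, 23.4% fell in TRUC and 16.3% in DSS, and nothing particular to this list or the Notch list is drawn from their counts. The medians were -0.39, -0.47, -0.01, -0.28, -0.60 and -0.57. Prom1, a membrane protein of crypt cells, rose in TRUC from 70.4 ± 16.8 (SD, n = 3) to 326 ± 28.2 CPM (SD, n = 4), where Ascl2 fell (2.21 ± 0.51, edgeR adjusted p = 0.00123). With IL-10 blockade Prom1 rose from 70.8 ± 7.46 (SD, n = 3) to 309 ± 287 CPM (SD, n = 4), a wide spread between mice (2.13 ± 0.51, edgeR adjusted p = 0.00128). Mex3a, an RNA-binding protein of slowly dividing Lgr5-positive cells, rose in DNBS (1.00 ± 0.24, edgeR adjusted p = 0.0162). Of 6 Notch genes, 3 fell and 1 rose in TRUC, 2 fell in DSS and in TCT, and 1 fell with IL-10 blockade. The medians were -0.63, -0.27, -0.34 and -0.19 in that order, and 0.24 in DNBS and -0.29 in anti-CD40. Hes1, the Notch target that keeps progenitors absorptive, fell in TRUC (-0.95 ± 0.17), DSS (-1.17 ± 0.19), IL-10 blockade (-0.66 ± 0.17) and TCT (-0.76 ± 0.19), at edgeR adjusted p of 0.000131, 5.92e-05, 0.00263 and 0.00314.

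Proliferation genes rose in the model with the most members lower. All 10 (among them Mki67, Top2a and Pcna) rose in TRUC with a median of 1.41 on the log2 scale. Their summed level was 1323 to 1572 CPM in TRUC mice and 551 to 602 CPM in the Rag2-/- controls. Rrm2, a subunit of ribonucleotide reductase, had the largest difference (2.54 ± 0.33, edgeR adjusted p = 3.45e-06). Of the 10, 3 rose in DSS, 2 in DNBS, 4 with IL-10 blockade, 1 in TCT and 1 in anti-CD40, with medians of 0.28, 0.62, 0.57, 0.47 and 0.47. In DSS, 0 of the 10 lay wholly above the controls. Their summed level was 1397 CPM in DSS mouse 5 but 733 and 690 CPM in DSS mice 6 and 8, against 696 to 850 CPM in the wild-type controls. Genes of mature cells differed in direction between models. Of 6 colonocyte genes, 5 fell and 1 rose in TRUC (median -2.29), 3 fell and 1 rose in TCT (-1.29), 2 fell and 1 rose in anti-CD40 (-0.41), 1 fell and 1 rose in DSS (-0.76) and with IL-10 blockade (0.19), and the median in DNBS was -1.005. Of 8 goblet cell genes, 3 fell and 1 rose in TRUC (-0.74), 4 fell in TCT (-0.79), 1 fell in anti-CD40 (-0.27) and in DSS (0.04), 1 fell and 3 rose with IL-10 blockade (0.38), and the median in DNBS was 0.28. The summed goblet level was 5862 to 10136 CPM with IL-10 blockade and 6332 to 7414 CPM in the wild-type controls. Car1, a carbonic anhydrase of surface colonocytes, fell in TRUC (-3.69 ± 0.79, edgeR adjusted p = 0.000626).

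Over the 29 mice, the gene most like a member in its pattern, by Spearman's rho of log2 CPM, was Lgals12 for Lgr5 (0.85), Axin2 for Ascl2 (0.86), Ly6g6d for Axin2 (0.88) and Ankrd10 for Znrf3 (0.94). For the rest it was Mtss1 for Sox9 (0.93), Fbxo31 for Lrig1 (0.88), Aqp8 for Rnf43 (0.84), Zyx for Ephb2 (0.88) and Pabpc4 for Smoc2 (0.68). Among the 3 genes most like a member, another member appeared for Ascl2 and for Rnf43, and it was Axin2 in both (0.86 and 0.84). Lgr5 and Ascl2 had a rho of 0.40 with each other over all mice and, after each group's mean was removed, a Pearson correlation of 0.71. DSS mouse 5 stood far above DSS mice 6 and 8 for both genes. The part of that group in the correlation was not tested. The mice share controls, models and epithelial content, so these values describe the table and are not tests.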

How the data were processed

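RNA from colon segments of 29 mice in 9 groups was sequenced by the authors after poly-A selection, and they deposited 1 table of whole-number counts per Ensembl gene, raw and not normalised. The submitters' processing notes name Trimmomatic, HISAT2, HTSeq and GRCm38, with no versions. Groups came from the labels, and all 29 columns were matched to samples by their stated identifiers. The 92 spike-in rows held 0 counts in total and were left out. Separate labels mark separate mice, and none of the 33 replicate pairs agreed within sampling noise (lowest chi-square per degree of freedom 3.42). The highest values were in pairs with DSS mouse 8 (82.5 and 86.2, against 20.2 for the other DSS pair). Next were pairs with IL-10 blockade mouse 4 (62.5 to 64.4, against 14.3 to 22.0 for the other pairs of its group). These 2 mice thus stood apart from their groups across the counted genes.

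Counts were fitted in edgeR 4.0.16 (R 4.3.3) with TMM scaling and the quasi-likelihood test, in 1 model over the 9 groups without covariates, on the 18616 genes whose counts averaged 3 or more per mouse. Adjusted p-values are Benjamini-Hochberg over all genes tested, called under 0.05. The study tested gene set scores of these models. It also reported single genes, with neutrophil chemokines raised in all models and a volcano plot of TRUC against Rag2-/- mice. The method of a test per gene for this table is not given in the sources used here. Tested on simulated counts with 200 genes changed 4-fold, the fit recovered 77% of them in TRUC, 81% in DSS and DNBS, 83.5% in IL-10 blockade, 76% in TCT and 81.5% in anti-CD40, each on 18616 genes. Alternatives were DESeq2 1.42.0 and edgeR on 2 groups, RLE and upper quartile scaling, no filter and filterByExpr, a threshold of 0.01, another control, a replicate block and leaving out each mouse. The SE is the absolute log2 difference divided by the square root of the test's F. Intervals of folds are approximate 95% intervals, taken from that SE by a normal approximation. With few mice they can be too narrow, and can leave out 1 where the test does not pass. Counting intervals and floors (3 counts per library) cover counting error only.

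Gene names and exon lengths came from GENCODE M21, and promoter windows from RefSeq. Named outside the members were, per list and comparison, up to 2 called genes with the largest log2 fold change whose groups do not overlap, and the 3 genes most like each member, not all of which are reported here. The members and lists were chosen with earlier results of these data known.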

Additional observations from a re-analysis of the deposited data

Results flagged for a closer look

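In mice with IL-10 blockade, a mouse stood apart for each of 2 members by Dixon's test of the gap to the nearest value over the range, which chance flags in about 1 in 20 groups. For Lgr5 it was mouse 1, with 6.91 CPM against 4.50 to 4.89 CPM in the others (ratio 0.837). For Axin2 it was mouse 3, with 27.4 CPM against 18.2 to 19.7 CPM (ratio 0.832).

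The change against the control differed between the 6 models for 9 members by edgeR's test of equal contrasts, beside 60.5% of all genes tested. The adjusted p was 0.000142 for Ephb2, which was called higher in DSS, DNBS and IL-10 blockade, the models that share the wild-type control. It was 0.000290 for Lgr5, with log2 differences from -3.04 in DSS to 0.50 in DNBS, and 0.000668 for Axin2, from -1.35 in TRUC to 0.01 in DNBS. For Znrf3 (0.00381), Rnf43 (0.00529), Lrig1 (0.00566) and Sox9 (0.00913), the lowest differences were in TRUC, at -1.30, -0.76, -0.72 and -1.42. Smoc2 (0.0190) ranged from -0.39 in DSS to 0.75 in DNBS and did not pass without DNBS mouse 14 (adjusted p = 0.200). Olfm4 (0.0353) had at most 3 counts per mouse in 5 of the groups, and its test was lost without any 1 of 8 mice. Without the TCT and anti-CD40 libraries, 9 members differed.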

How the results depend on the processing

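Of 1190 single-member values under the alternatives, 1064 kept their direction and their side of the threshold, 75 lost their call, 15 gained one and 36 changed sign, of members not called in that comparison, except Axin2 and Rnf43 in TCT against another control. At a threshold of 0.01, members called were 1 lower and 1 higher with IL-10 blockade, 0 higher in TCT and 2 lower in anti-CD40. Without a filter on low counts, anti-CD40 had 2 lower. With the wild-type mice as control TCT had 1 lower, and with Rag2-/- mice as control anti-CD40 had 1 lower. With edgeR on 2 groups, DSS had 1 lower and 1 higher, and with DESeq2 DNBS had 2 higher. Relative to Epcam alone, 1 member was lower in DNBS. Replicate numbers are shared by TRUC and its control and by IL-10 blockade and its control, with correlations of same-numbered mice of -0.05 to 0.06. They share only a number, and a fit with it as a replicate block called 3 lower with IL-10 blockade. The cause of these moves was not tested.

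Leaving out 1 mouse at a time, the members lower were 6 in TRUC, 2 to 4 in DSS, 0 in DNBS, 1 to 5 with IL-10 blockade, 4 to 5 in TCT and 1 to 4 in anti-CD40. Those higher were 1 in TRUC, 1 to 2 in DSS, 1 in DNBS, 2 with IL-10 blockade, 0 to 1 in TCT and 0 in anti-CD40, and 7 to 10 differed between models.

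Signs changed for small differences. With upper quartile scaling, which moved the median of all genes to -0.14 in TRUC and -0.18 with IL-10 blockade, Smoc2 in TRUC was -0.021, Axin2 and Rnf43 in DNBS were -0.064 and -0.055, and Rnf43 with IL-10 blockade was -0.17. Rnf43 with IL-10 blockade was -0.034 with filterByExpr, -0.012 in edgeR and -0.00618 in DESeq2 on 2 groups, and -0.082 with the replicate block. Smoc2 in TCT was 0.00435 without a filter and 0.00651 in DESeq2. Against wild-type mice, TCT gave 0.43 for Ascl2, 0.14 for Axin2 and 0.10 for Rnf43, and against Rag2-/- mice anti-CD40 gave 0.33 for Lgr5 and 0.20 for Ephb2. Without 1 mouse, ranges crossed 0 in DNBS for Axin2 (-0.070 to 0.15), Sox9 (-0.016 to 0.39), Rnf43 (-0.086 to 0.11) and Olfm4 (-0.10 to 1.14), with IL-10 blockade for Rnf43 (-0.060 to 0.10), in TCT for Smoc2 (-0.16 to 0.24), and in anti-CD40 for Lgr5 (-0.61 to 0.37), Lrig1 (-0.22 to 0.032) and Olfm4 (0 to 3.70). Depth limits Olfm4 most, with at most 3 counts in 17 of 29 mice.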

Other observations

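Genes of other cell types moved in the same comparisons as the members. Of 6 macrophage genes, 6 rose in TRUC and in DSS, 5 in TCT, 3 with IL-10 blockade and 2 in anti-CD40, with medians of 1.24, 2.09, 2.54, 1.06 and 0.60 on the log2 scale, and of 0.72 in DNBS. Cd14, the co-receptor for bacterial lipopolysaccharide, rose in TRUC from 80.7 ± 25.3 (SD, n = 3) to 603 ± 59.5 CPM (SD, n = 4) (2.90 ± 0.46, edgeR adjusted p = 3.72e-05). Of 9 neutrophil genes tested, 7 rose in TRUC, 8 in DSS and with IL-10 blockade, and 6 in DNBS, TCT and anti-CD40. Of 6 smooth muscle genes, 5 fell with IL-10 blockade (median -0.97) and 2 in TRUC (median -0.56). Myh11, the smooth muscle myosin, fell with IL-10 blockade from 2630 ± 212 (SD, n = 3) to 959 ± 385 CPM (SD, n = 4) (-1.46 ± 0.33, edgeR adjusted p = 0.000910). Of 6 fibroblast genes, 3 fell with IL-10 blockade and 3 rose in DNBS, with medians of -0.75 and 0.61. The part of these cells in the members' levels was not tested.

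Goblet cell genes went different ways in different models. Clca1, a secreted mucus protein, fell in TRUC (-3.98 ± 0.46, edgeR adjusted p = 9.84e-07), TCT (-1.958 ± 0.47, edgeR adjusted p = 0.00288) and anti-CD40 (-1.63 ± 0.47, edgeR adjusted p = 0.0158). With IL-10 blockade, Muc2, the main mucin of the colon, rose (1.53 ± 0.26, edgeR adjusted p = 4.50e-05), as did Spdef, a goblet cell transcription factor (1.61 ± 0.26, edgeR adjusted p = 3.00e-05). Krt20, a keratin of differentiated surface cells, rose with IL-10 blockade (2.54 ± 0.30, edgeR adjusted p = 8.01e-07) and in DSS (1.13 ± 0.29, edgeR adjusted p = 0.00477).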
